A study of Homo sapiens with 8 samples.

Results

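Chromatin accessibility of LX-2 cells on a soft matrix was compared between day 4 and day 2 of culture. LX-2 is an immortalised human line of hepatic stellate cells (HSCs), used here without any genetic change or drug, and all cells were plated on fibronectin-coated polyacrylamide hydrogel. The 2 D2 soft and 2 D4 soft libraries came from gels of about 2 kPa, in the range of healthy liver, collected on day 2 or day 4. The 2 D2 stiff and 2 D4 stiff libraries came from gels of about 40 kPa, in the range of cirrhotic liver, and serve here only as a second view of the same regions. Each library is an ATAC-seq peak list that was called on its own. Overlapping peaks of the 4 soft lists were merged into 80504 regions, where the 8 lists together gave 102366. Of these, 4444 had a peak in both D4 soft lists and neither D2 soft list (D4-only regions), 306 had a peak in both D2 soft lists and neither D4 soft list (D2-only regions), 25159 were in all 4 lists (shared regions) and 50595 had another pattern. A cell line grown as one population has no cell types to separate. The labels only number the replicates, which the study's methods call biological, and p-values rest on these 2 libraries a day. In the limma fits each region's spread is drawn towards one common to all regions, so it is not that region's alone.

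ATAC-seq marks the places where a transposase can reach the DNA, which are mostly promoters and enhancers free of nucleosomes. HSCs store vitamin A in healthy liver and turn into contractile, collagen-producing myofibroblasts in fibrosis, and a soft matrix is known to hold them nearer to the resting state. AP-1 (JUN and FOS proteins) and TEAD with its co-activator YAP are transcription factors that bind enhancers of adherent mesenchymal cells, and YAP, like SRF with its co-activator MRTF, answers to tension in the actin cytoskeleton.

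The sequences on which the description turns are given first. Each is 151 bases of the plus strand of GRCh37 (hg19) around a peak summit, named by the nearest protein-coding gene, with matches to searched motifs in capitals. The motifs, read on both strands, were TGANTCA for AP-1, GGAATG for TEAD, GGGCGG for the GC box bound by SP1-like factors, TTGCNNAA for C/EBP, TGTGGTT for RUNX, CCGGAAG for ETS, TGACGTCA for the CRE and, by its name, CTCF. None of the spelled-out motifs contains another. A match is a description of letters, not a binding site. The 51 bases at the summit of each sequence occur once in the genome. The first set holds 3 of the 10 best-ranked D4-only regions, the best-ranked D4-only region near GATA6 and the strongest one at CDH2. The 3 were taken from the 6 of those 10 with an AP-1 match, to show what a match looks like, so the AP-1 matches in this set reflect the choice and not how common they are. The match is doubled in the TMEM132C region and lies beside a TEAD match in the IQCM region. Over all merged regions 35.8% have an AP-1 match within 100 bp of the summit.
TMEM132C, chr12:127901453-127901603: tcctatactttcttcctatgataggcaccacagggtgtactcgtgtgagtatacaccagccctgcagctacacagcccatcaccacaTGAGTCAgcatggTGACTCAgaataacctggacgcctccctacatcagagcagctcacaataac
PCDH7, chr4:31177001-31177151: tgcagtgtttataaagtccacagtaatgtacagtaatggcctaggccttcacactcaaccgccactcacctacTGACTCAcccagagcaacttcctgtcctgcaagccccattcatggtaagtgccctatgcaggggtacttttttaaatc
IQCM, chr4:150067120-150067270: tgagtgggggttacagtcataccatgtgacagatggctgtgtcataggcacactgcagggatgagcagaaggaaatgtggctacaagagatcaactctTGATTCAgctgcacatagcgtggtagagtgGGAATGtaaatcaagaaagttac
GATA6, chr18:19803711-19803861: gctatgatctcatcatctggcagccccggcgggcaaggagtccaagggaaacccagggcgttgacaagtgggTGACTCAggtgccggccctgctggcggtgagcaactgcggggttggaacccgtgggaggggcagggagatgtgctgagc
CDH2, chr18:25619163-25619313: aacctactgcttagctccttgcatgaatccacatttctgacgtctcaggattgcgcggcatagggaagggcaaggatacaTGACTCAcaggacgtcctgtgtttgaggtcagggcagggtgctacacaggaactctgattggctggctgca

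The second set holds 3 of the 10 best-ranked D2-only regions, the 3 of those 10 with an AP-1 match. The TP63 region also holds a C/EBP match, and 9.04% of all merged regions have one.
TNS1, chr2:218550053-218550203: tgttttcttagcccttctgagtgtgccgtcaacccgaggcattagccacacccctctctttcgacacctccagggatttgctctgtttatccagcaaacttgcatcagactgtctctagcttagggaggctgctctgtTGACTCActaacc
TP63, chr3:189632729-189632879: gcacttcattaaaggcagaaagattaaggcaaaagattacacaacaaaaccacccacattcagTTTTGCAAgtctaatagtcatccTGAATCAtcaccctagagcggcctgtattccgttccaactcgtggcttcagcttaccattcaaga
MACC1, chr7:20269907-20270057: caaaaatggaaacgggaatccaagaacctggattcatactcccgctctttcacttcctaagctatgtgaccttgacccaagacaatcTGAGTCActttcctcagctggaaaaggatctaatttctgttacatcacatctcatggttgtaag

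The third set shows shared regions. The MC4R and WNT5A regions were among the 10 with the largest D4 minus D2 difference in rank, and the YAP1 promoter had the lowest difference among the promoters of the pathway genes examined. The YAP1 window holds none of the motifs.
MC4R, chr18:57926427-57926577: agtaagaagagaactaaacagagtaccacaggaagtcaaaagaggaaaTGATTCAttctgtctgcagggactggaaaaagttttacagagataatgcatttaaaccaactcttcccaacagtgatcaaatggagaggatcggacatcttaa
WNT5A, chr3:55450469-55450619: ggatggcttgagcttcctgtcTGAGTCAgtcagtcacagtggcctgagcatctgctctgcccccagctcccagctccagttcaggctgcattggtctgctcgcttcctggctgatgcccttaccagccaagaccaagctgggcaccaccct
YAP1, chr11:101982704-101982854: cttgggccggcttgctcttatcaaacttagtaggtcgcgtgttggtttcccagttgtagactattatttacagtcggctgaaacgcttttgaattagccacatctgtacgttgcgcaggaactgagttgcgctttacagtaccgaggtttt

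The lists differed in depth, and this touches every count that follows. The D2 soft lists held 29789 and 55754 peaks and the D4 soft lists 63272 and 56362. The mean was 59817 ± 4886 peaks (SD, n = 2) on day 4 and 42772 ± 18360 (SD, n = 2) on day 2, with covered lengths of 31.9 ± 2.06 Mb and 23.3 ± 9.73 Mb (exact two-sided permutation p = 0.333 for both, the smallest that 2 against 2 libraries can give). Without D2 soft replicate 1 the difference in peak number went from 17046 to 4063. The background pileup, estimated from the caller's values, was 0.229 and 0.424 in the D2 soft libraries and 0.558 and 0.564 in the D4 soft libraries. D2 soft replicate 1 stood apart: it shared 42.3% to 46.2% of regions with each other soft library, its own replicate included, and the other 3 shared 62.3% to 63.9%. Less open chromatin and fewer fragments sequenced cannot be told apart from these lists.

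The D4-only regions made up 5.52% of merged regions and the D2-only regions 0.38%. More frequent than either, after the shared regions, was the pattern of a peak in every soft list but that of D2 soft replicate 1, found at 14948 regions or 18.6%. When each list was cut to its best 29789 peaks, the length of the shortest list, 1228 D4-only and 1037 D2-only regions were found. Leaving out D2 soft replicate 1 gave 5228 regions with a peak in both D4 soft lists and not in the remaining D2 list, and 6595 of the reverse pattern.

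**Figure D1:**
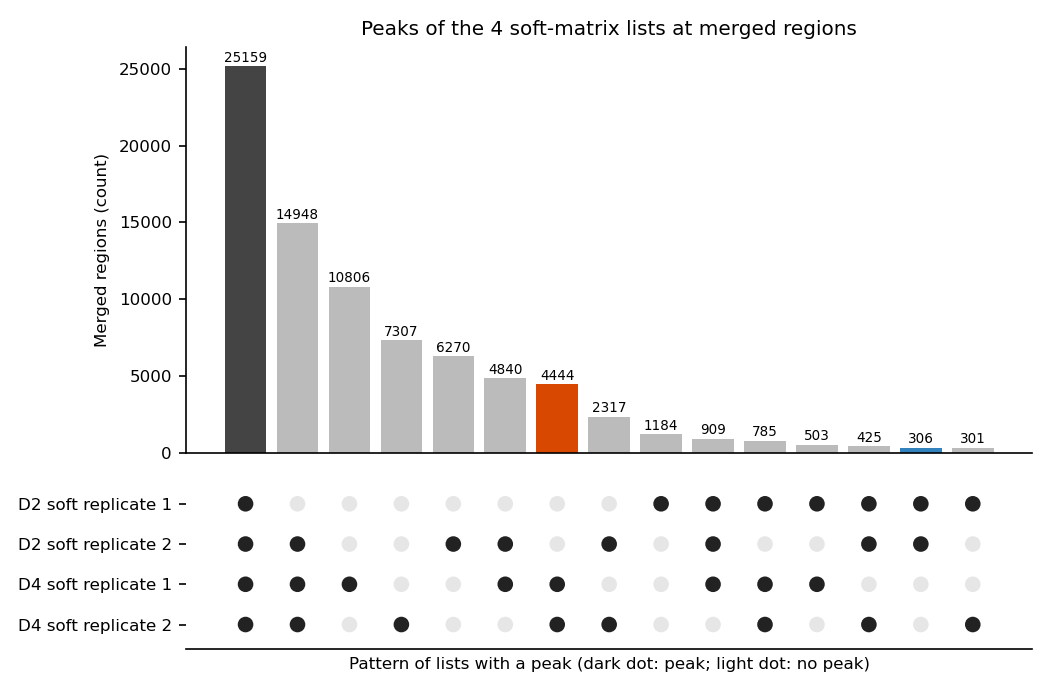
Number of merged soft-matrix regions in each pattern of presence and absence over the 4 soft peak lists (bars, from 0), with the lists that hold a peak marked under each bar. The 25159 shared regions lead, followed by the 14948 that lack a peak only in D2 soft replicate 1, and the 4444 D4-only regions exceed the 306 D2-only regions.

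Most D4-only regions were weak peaks. Their median summit pileup was 10 fragments in D4 soft replicate 1 and 9 in replicate 2, against 27 and 23 at shared regions. Scaled by the ratio of backgrounds, the median D4-only pileup came to 3.88 fragments in D2 soft replicate 1, whose lowest listed peak had 3 and median peak 10, and to 7.18 in D2 soft replicate 2, whose lowest had 4 and median 16. A D4-only region would have reached the median pileup of both D2 lists in 73 of 4444 cases (1.64%), and a D2-only region that of both D4 lists in 73 of 306 (23.9%).

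The best-ranked D4-only regions varied widely in their distance from the nearest start. The 10 with the best mean rank in the D4 lists had fold enrichments, the summit pileup over the library's own background, of 12.3 to 19.0 in D4 soft replicate 1 and 11.3 to 15.3 in replicate 2. The median of all peaks in these lists was 7.15 and 6.79. The highest was 19.0 and 15.3 at chr21:9695899-9696217, 1294743 bp from the start of TPTE, a testis phosphatase, and 7 of the 10 were intergenic. An AP-1 match was within 100 bp of the summit in 6 of the 10, and in 42.3% of all D4-only regions.

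The TMEM132C region (chr12:127901428-127901790) had fold enrichments of 13.7 and 11.7, and lay 850187 bp from the start of that gene, which codes for a transmembrane protein. The PCDH7 region (chr4:31176809-31177325) had 12.3 and 12.8, in an intron of the noncoding gene LINC02497 and 450927 bp from a start of PCDH7, a protocadherin of cell-cell adhesion. The IQCM region (chr4:150067091-150067491) had 14.5 and 11.3, at 669800 bp from a start of that gene. None of these 3 distances allows a gene to be assigned, and the names serve as addresses. A further 5 had as nearest genes AC012414.1 (43162 bp away), RP11-685N3.1 (525628 bp), OR2K2 (an olfactory receptor, 4431 bp), YTHDC2 and STXBP5. YTHDC2, an RNA helicase that binds methylated RNA, was 8318 bp away. STXBP5 (tomosyn, a regulator of vesicle fusion) was 49797 bp away, and its region lay in an intron of its antisense gene with 12.8 and 11.5. All 10 were also in 3 or 4 of the stiff lists, 7 of them in all 4.

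Promoter regions, those within 1 kb of a protein-coding start, were 393 of the 4444 D4-only regions. Among the 5 best ranked were the promoters of CD247, the zeta chain of the T-cell receptor, with 12.3 and 8.93, and of ZBED2, a zinc-finger factor, with 10.5 and 8.92. PDXDC1 followed with 10.4 and 8.18 and EPCAM, an adhesion molecule of epithelial cells such as cholangiocytes, with 8.80 and 8.78 at chr2:47571802-47572617. Each of these 4 promoters was also in at least 3 stiff lists.

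The best-ranked D2-only regions were weaker. The 10 best had fold enrichments of 4.73 to 6.76 in D2 soft replicate 1 and 8.20 to 12.7 in replicate 2, where the list medians were 6.18 and 7.61. The first was the ENPP2 promoter (chr8:120651063-120651608), 117 bp from the start of the gene of autotaxin, which makes lysophosphatidic acid, with 6.16 and 10.6. Tensins, which link integrins to actin, lay nearest to 2 of the 10. The TNS1 region (chr2:218549844-218550234), in an intron of the noncoding gene DIRC3, had 5.95 and 10.05, and the TNS3 region, 425211 bp from its start, had 6.26 and 8.20. The TP63 region (chr3:189632593-189633084), nearest to the gene of a p53-family factor of epithelia, had 4.73 and 12.7, so that the D2 replicates were far apart. The rest had as nearest genes NDE1 (a dynein partner), MACC1, OGFRL1, COPS8 (a subunit of the COP9 signalosome, 252202 bp away), USP10 (a deubiquitinase) and PRPSAP2. Behind ENPP2, the best D2-only promoters were those of SLC22A18 (5.24 and 9.03), HMGA1, an architectural protein of chromatin (5.79 and 7.39), ARHGEF7, an exchange factor for RAC and CDC42 (4.07 and 7.61), and FGF22 (3.85 and 7.998). The AP-1 motif matched in 3 of the 10 best-ranked, and in 37.3% of all D2-only regions.

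Some genes collected several D4-only regions, and long neighbourhoods with many regions led. CDH9, a classical cadherin, was the nearest gene of 14 D4-only regions among 129 merged regions, all at least 92441 bp from its start, and also of 2 D2-only regions. CDH2, N-cadherin of mesenchymal adherens junctions, had 11 among 64. MARCKS, a substrate of protein kinase C that binds actin, had 9 among 43, with 6 of the 9 holding an AP-1 match. TENM2, PCDH7 and TMEM132C had 8 each, and GPAT3, SLITRK6, GJE1 and SLC8A1 had 6 each. Of the 16494 genes nearest to any region, 3271 had a D4-only region and 293 a D2-only region, 116 both. KIT, the stem cell factor receptor, led the D2-only side with 3 regions among 17, 16514 to 198148 bp from its start, with fold enrichments of 3.83 to 5.69 in D2 soft replicate 1 and 4.56 to 5.94 in replicate 2, beside 1 D4-only region. There 11 genes followed with 2 each: TNS1, OGFRL1, ZFP90, SHANK2, TRIM27, CDH9, ZPLD1, MTAP, DLC1, IRF2BP2 and PTPN1. In lists of equal length the D4-only counts fell to 4 for CDH9, 2 for CDH2 and 0 for MARCKS.

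At CDH2 the D4-only regions spread from 1027 to 1003696 bp from a start and were of modest height. Fold enrichment ran from 3.21 to 10.8 in D4 soft replicate 1 and from 3.14 to 7.73 in replicate 2. The strongest (chr18:25619142-25619402, printed above) lay in an intron, with a pileup of 21 and 13 fragments, and no stiff list held it. The neighbouring intronic region chr18:25583503-25583957 had 8.45 and 6.38 and was in 3 stiff lists. The nearby shared region at an internal start (chr18:25625507-25626161) had 6.03 and 7.71 on day 2 and 9.13 and 9.30 on day 4. The 2 D4-only regions lack a day 2 value by the way they were chosen. At the shared region the difference was 0.52 ± 0.51 rank-score units (limma, unadjusted p = 0.319), within its error. The shared region at the most upstream start had 5.67 and 3.88 on day 2 and 5.56 and 4.38 on day 4.

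**Figure D2:**
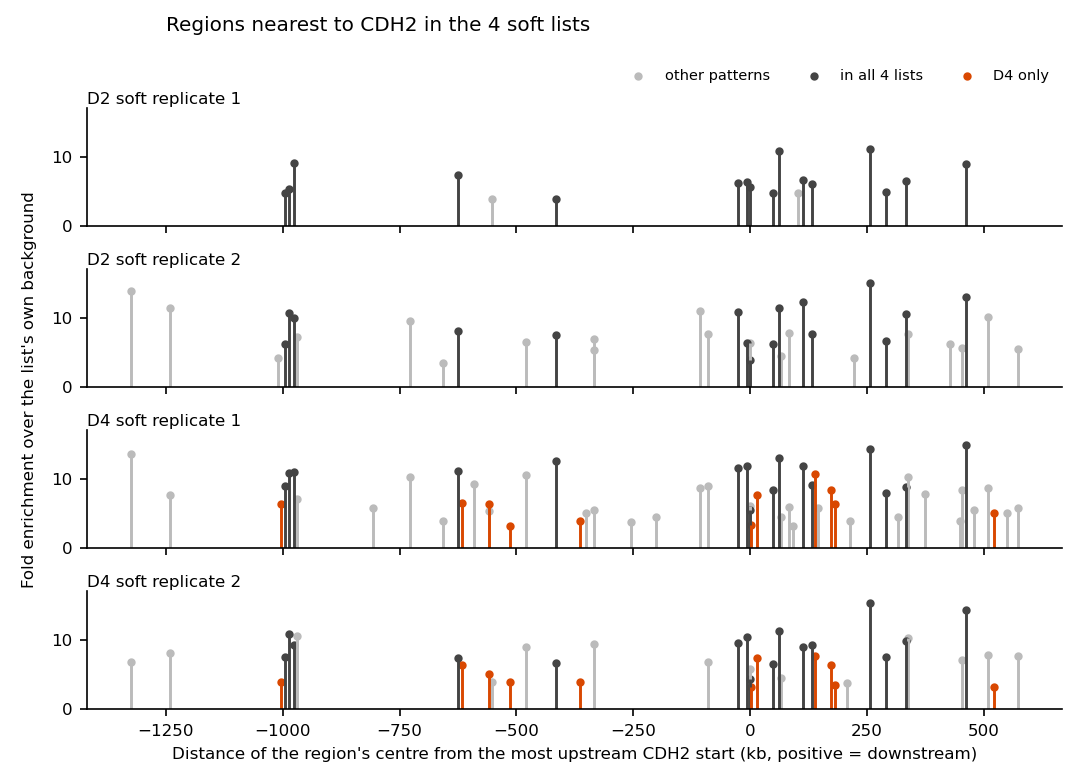
Fold enrichment (vertical axis) of the peaks nearest to CDH2, 1 panel per soft list, against distance from its most upstream transcription start in kb (horizontal axis). D4-only regions are orange, shared regions dark and other patterns light grey. The 11 D4-only regions are scattered among the 16 shared regions, and the highest reaches 10.8 in D4 soft replicate 1.

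D4-only and D2-only regions lay farther from starts than shared regions. Promoters made up 8.84% of D4-only and 6.86% of D2-only regions, against 32.1% of shared and 17.9% of all merged regions. In lists of equal length the order of the first 2 turned, with 11.2% of D4-only and 24.8% of D2-only regions beside 35.3% of shared regions. The median distance to a start was 36581 bp, 25611 bp and 14358 bp, in that order, and introns held 56.5%, 55.2% and 47.4%. GC content was 47.7%, 47.4% and 53.4%, and median width 436, 512 and 836 bp. The nearest shared region was at a median of 31208 bp from a D4-only region and 24179 bp from a D2-only region, with 7.63% and 7.52% within 5 kb.

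AP-1 matches were in 42.3% of D4-only and 37.3% of D2-only regions, against 36.0% of shared and 35.8% of all merged regions. Outside promoters the shares were 45.2%, 38.6%, 49.9% and 41.8%, so that D4-only regions lay below shared regions there. Promoters included, the D4-only share was 54.3% in lists of equal length, over a smaller set of regions. The other classes of those lists are not given, so it cannot be set against the shares above. TEAD matches were in 18.8% of D4-only, 17.3% of D2-only and 17.7% of all merged regions. CTCF, the insulator protein, matched in 2.79% of D4-only and 3.27% of D2-only regions but in 0.727% of shared and 1.86% of all merged regions. GC boxes were in 8.93%, 11.4% and 24.2% of D4-only, D2-only and shared regions, where all merged regions gave 15.1%. RUNX matches were in 7.403%, 7.52% and 6.16%, with 6.42% over all merged regions. ETS matches were in 1.85%, 0.980% and 6.26%, with 3.33% overall. C/EBP matches were in 9.11%, 6.21% and 8.01%. The CRE matched in 0.405% of D4-only regions, 0% of D2-only regions and 0.950% of shared regions, with 0.571% overall. These shares carry no test, since the classes were drawn from the same lists.

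The stiff libraries, which had no part in choosing the regions, held many of both classes. The D4-only soft regions had a peak in 51.4% and 60.2% of cases in the D2 stiff lists and in 68.2% and 73.4% in the D4 stiff lists. The D2-only soft regions had one in 53.6% and 59.2% and in 67.6% and 68.0%. The D4 stiff lists were above the D2 stiff lists for both classes, by 15.0 and 11.4 percentage points, and by 9.25 points at regions of other patterns (exact two-sided permutation p = 0.333 for each, the smallest possible). The stiff lists of day 4 are also the longer ones (65905 and 72840 peaks against 59277 and 63684), and in stiff lists cut to equal length the differences were 7.48, 4.25 and 3.13 points. Without D2 soft replicate 2 the 15.0 points became 7.95. A peak in both D4 stiff lists and neither D2 stiff list was found at 336 D4-only soft regions (7.56%), and the reverse at 62 (1.395%). Among D2-only soft regions the counts were 23 (7.52%) and 7 (2.29%), so that D2-only soft regions showed the day 4 pattern on the stiff matrix more often than the day 2 pattern, as D4-only regions did. The shares over all merged regions were 3.52% and 0.756%. All 4 stiff lists held 29.2% of D4-only and 30.7% of D2-only regions, and none held 8.84% and 10.1%.

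**Figure D3:**
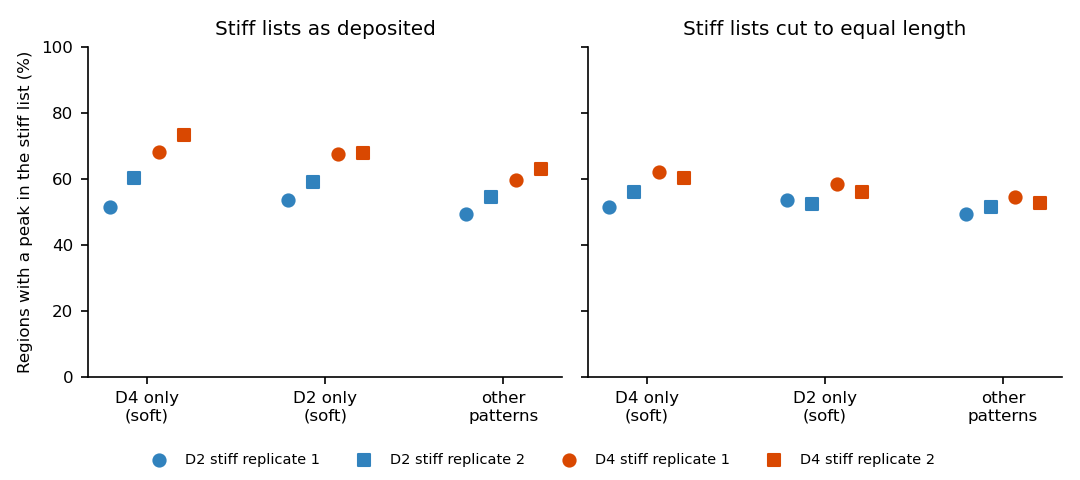
Percent of D4-only, D2-only and other soft-matrix regions that overlap a peak in each of the 4 stiff lists (points, 1 per stiff library), as deposited on the left and cut to equal length on the right. For each class and in both panels both D4 stiff libraries lie above both D2 stiff libraries, as deposited from 51.4% to 73.4% for D4-only regions and from 53.6% to 68.0% for D2-only regions.

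At the 25159 shared regions, fold enrichment was ranked within each list, turned into normal scores and compared between days with limma. No region passed an adjusted p under 0.05 in either direction (0% higher and 0% lower on day 4, lowest adjusted p 0.940). At an unadjusted p under 0.05, 736 (2.93%) ranked higher on day 4 and 523 (2.08%) lower. The ranks of the days did not overlap at 4149 regions (16.5%) that were higher and 4394 (17.5%) that were lower on day 4. For scale, 1 of the 6 ways to split 4 libraries into pairs puts both D4 ranks on top, and 1 puts both at the bottom. Other fits also called 0 regions, apart from those without one D2 library. Without D2 soft replicate 1 limma called 5 higher and 0 lower among 40111 regions, and without D2 soft replicate 2 it called 500 higher and 176 lower among 25933. In each of these fits day 2 was 1 library, assumed to vary like the D4 libraries, and in the second it was D2 soft replicate 1, the library that stood apart.

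The regions with non-overlapping days are described here as sets, although none of them passed the adjusted threshold. Promoters made up 26.6% of the 4149 higher and 39.0% of the 4394 lower regions, beside 32.1% of all shared regions, and the order was the same with any one library left out (26.1% to 29.5% against 34.8% to 38.1%). The median difference was −0.097 rank-score units at the 8077 promoter regions and 0.0163 at the 17082 others. Away from promoters an AP-1 match was in 55.3% of the higher and 44.3% of the lower regions, beside 49.9% of all such regions. That difference rested on D2 soft replicate 1. Without it the shares were 50.5% and 49.7%, and among the 2517 best-ranked shared regions of that library AP-1 matched in 34.5%, against 43.6% to 45.9% among the 2516 best-ranked of each of the other 3. Promoters made up 36.0% of the best-ranked regions of D2 soft replicate 1, against 25.2% to 28.8% in the other 3 libraries.

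The region with the largest difference lay 113506 bp from the start of MC4R, the melanocortin receptor of appetite control (chr18:57926294-57926765). Its fold enrichment was 4.07 and 4.76 on day 2 and 11.5 and 11.6 on day 4. Among shared regions it stood at percentiles 5.85 and 2.19 on day 2 and 73.9 and 85.5 on day 4, so both replicates of each day were close. Its day 2 pileups were 4 and 6 fragments, near the lowest listed in those libraries (3 and 4). On day 4 they were 19 and 18. The difference was 2.64 ± 0.52 rank-score units (limma, adjusted p = 0.940), and it passed the threshold in the fits with 1 D2 library (adjusted p = 0.0334 without D2 soft replicate 1 and 0.00685 without replicate 2) but not without either D4 library. The region was chosen for this difference, so these values describe it and do not test it.

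For several of the other large differences the D2 replicates were far apart. The WNT5A region (chr3:55450288-55450762), 64680 bp from the gene of a Wnt ligand of non-canonical signalling, had 5.30 and 11.8 on day 2 and 16.998 and 14.6 on day 4. The MTHFD1L region, in an intron of a gene of mitochondrial folate metabolism, had 4.42 and 13.3, then 16.7 and 15.3. The SOCS6 region, nearest to a cytokine-signalling suppressor, had 3.6005 and 10.04, then 11.9 and 14.6. In these 3 the D2 soft replicate 2 value was nearer to day 4 than to its own replicate. The ZCCHC2 region had 5.27 and 7.28, then 13.1 and 14.1, and the TCF4 region, 303992 bp from the start of the gene of a helix-loop-helix factor, 4.07 and 7.73, then 12.6 and 12.3. The nearest genes of the others were DTNBP1 (130356 bp away), NDFIP2 (an adaptor of NEDD4 ubiquitin ligases, 44275 bp) and HS3ST1 (a heparan sulfate sulfotransferase, 483547 bp). For the last it was ENSG00000285566 (672625 bp), which has no symbol in the annotation. The 10 differences ran from 2.22 to 2.64 units, 8 of the 10 regions held an AP-1 match and none was a promoter. Among all shared regions away from promoters 49.9% held one, and the difference from this share was not tested. In D2 soft replicate 1 the 10 regions had pileups of 3 to 7 fragments, against a median of 11 at shared regions.

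The largest negative difference was in an intron of ARHGAP23, a GTPase-activating protein (chr17:36640552-36641267), with fold enrichments of 6.03 and 8.78 on day 2 and 4.02 and 3.35 on day 4, or −2.35 ± 0.51 units (limma, adjusted p = 0.940). NRIP2 had 7.08 and 12.9, then 6.67 and 4.58. PTMA, the gene of prothymosin alpha, had a region at 644 bp from its start with 6.89 and 6.21, then 3.38 and 4.09. The groups did not overlap at any of these in rank. NOX3 (an NADPH oxidase), WDR1 (an actin-disassembly cofactor), SPCS3 (a subunit of signal peptidase), PCBP4, RBBP5 (a subunit of the MLL histone methyltransferases), NALCN (the sodium leak channel) and GARS1 (glycyl-tRNA synthetase) completed the 10, which ran from −2.35 to −1.85 units. Promoters were 4 of these 10, AP-1 matched in 2 and TEAD in 3. The shares over all shared regions were 32.1%, 36.0% and 17.7%. Without D2 soft replicate 2, when day 2 was D2 soft replicate 1 alone, all 10 positive and 6 of the 10 negative differences passed the threshold, but all 20 were chosen for their size in a ranking that used that library.

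**Figure D4:**
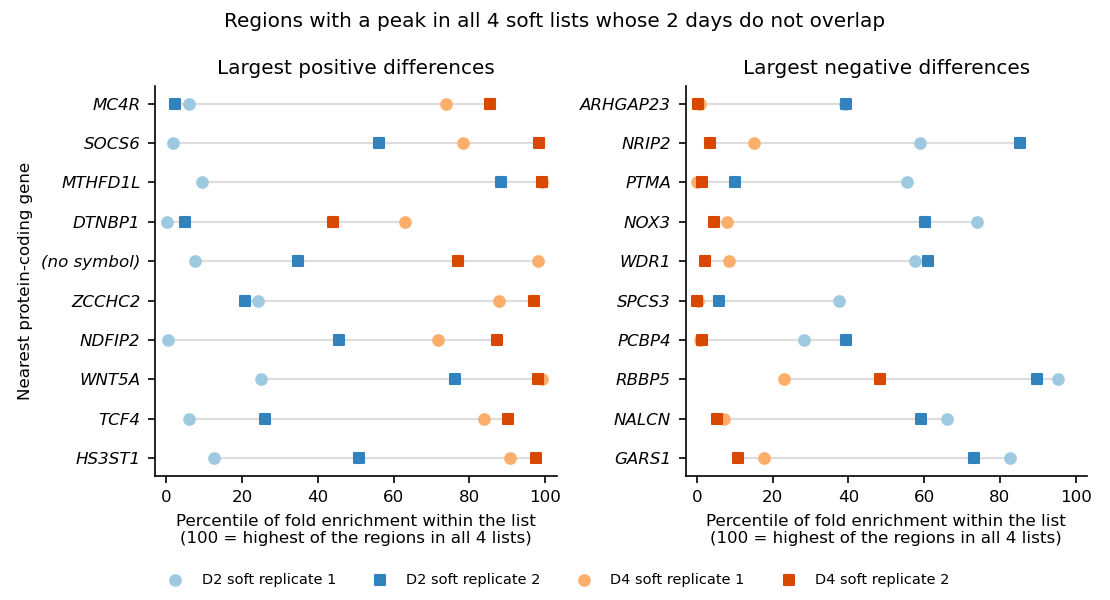
Percentile of fold enrichment among the 25159 shared regions (axis from 0 to 100) in each of the 4 soft libraries, for the 10 regions with the largest positive and the 10 with the largest negative D4 minus D2 difference. D4 and D2 points do not overlap at any of these regions, and for MC4R they lie at 5.85 and 2.19 on day 2 and 73.9 and 85.5 on day 4.

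The same day comparison was made on the stiff matrix at the 24246 regions in all 8 lists. The difference of the day effect between matrices passed an adjusted p under 0.05 at 0 regions by limma (658 and 619 at an unadjusted p under 0.05). Of the 9 largest positive soft differences present in all 8 lists, 7 had the same sign on the stiff matrix, 4 had non-overlapping ranks there in the same direction and 1 (TCF4) in the opposite direction. Among all 3990 regions whose soft days did not overlap with day 4 higher, 52.2% had the same sign, 20.1% did not overlap in the same direction and 18.6% in the opposite one. Of 8 negative ones, 5 had the same sign, 2 did not overlap in the same direction and 0 in the opposite one. The shares among all 4233 regions lower on day 4 were 55.3%, 22.2% and 15.1%. With 9 and 8 regions no difference from these shares was tested.

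Genes of pathways relevant to HSCs were then counted over 15 lists that together held 179 genes. Of their promoters, 99 (55.3%) had a peak in all 4 soft lists, against 45.9% of all protein-coding genes, and 16 had none. A promoter peak in both D4 lists and neither D2 list was found for 4 (2.23%), where 1.25% of all genes have one. They were COL1A2, coding for a chain of type I collagen, CCL2, a chemokine, CCND1, cyclin D1, and PPARG, a nuclear receptor of quiescent HSCs. For PPARG these peaks did not make up a D4-only region, since none was nearest to it within 100 kb. None had a D2-only promoter peak, which 0.0656% of all genes have. The COL1A2 peak (chr7:94024671-94025330) had fold enrichments of 5.14 and 6.31 and a pileup of 11 and 12 fragments. That of CCL2 had 4.02 and 4.58 and that of CCND1 3.10 and 4.11, which are low in these lists. All 4 stiff lists also held the COL1A2, CCL2 and CCND1 peaks, and 3 stiff lists had a PPARG promoter peak.

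Within 100 kb of a start, 51 of the 179 genes (28.5%) were nearest to a D4-only region, where 13.5% of all genes were, and 5 (2.79%) to a D2-only region, where 1.17% were. These genes have more regions of every kind around them. Of the 1390 regions linked to them, 73 (5.25%) were D4-only and 0.360% D2-only, near the 5.12% and 0.379% of all linked regions. Among collagens and matrix glycoproteins 8 of 18 genes had a D4-only region, with 3 at COL4A2, a basement membrane collagen that also had a D2-only region, and 2 at COL8A1. The 3 at COL4A2 had 5.09, 4.76 and 6.60 in D4 soft replicate 1 and 4.83, 3.57 and 5.44 in replicate 2. Among mesenchymal lineage factors 7 of 14 genes had one, with 2 each at GATA4, GATA6 and RUNX1. The GATA6 region at chr18:19803631-19804062, 52892 bp from the start of this HSC lineage factor, was the tallest of those named here with 14.1 and 10.6 (pileup 36 and 26). HGF, the hepatocyte growth factor made by HSCs, had 2 with 11.1 and 7.49 and with 10.3 and 8.24, both with an AP-1 match.

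Of the remaining lists, 6 of 11 genes of inflammatory cytokines and NF-kB had a D4-only region within 100 kb (NFKB1 and TNFAIP3 with 2 each). So had 5 of 14 integrin and focal adhesion genes, 4 of 12 AP-1 factors (ATF3 with 2), 3 of 14 matrix turnover genes (TIMP3 with 3) and 3 of 14 genes of TEAD, YAP and their targets (TEAD1, CCN2 and ANKRD1). The counts were 3 of 14 for cell cycle, 3 of 10 for quiescent HSC and retinoid genes, 2 of 7 for SRF and MRTF, 2 of 10 for the adherens junction (CDH2 with 5), 2 of 14 for the TGF-beta pathway, 2 of 10 for IGF and its binding proteins, 1 of 11 for the contractile apparatus (CALD1) and 0 of 6 for the PDGF pathway. Over all protein-coding genes 13.5% had a D4-only region within 100 kb. Of the regions linked to each list, the D4-only share ran from 0% (PDGF pathway) to 9.43% (quiescent HSC and retinoid genes). It was 5.12% over all genes. The 5 genes with a D2-only region were COL4A2, FOSL2, AMOTL1, ITGA1 and TGFBR2. With lists of equal length, 15 of the 179 genes (8.38%) had a D4-only and 19 (10.6%) a D2-only region, beside 4.30% and 4.21% of all protein-coding genes. These shares by gene make no allowance for the listed genes having more regions around them.

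Where a listed promoter was in all 4 soft lists, none of the differences in rank passed the adjusted threshold. A gene with more than 1 such region was represented by 1 of them. ADAMTS1, AXL, CDH2, PCNA, PLAT, SPARC, WT1, WWTR1 and YAP1 each had 2, and LTBP1 had 3. Apart from CDH2 the regions left out are not described, so the YAP1 values hold for 1 of its 2. The lowest difference was at YAP1, the co-activator of TEAD, with fold enrichments of 7.21 and 7.30 on day 2 and 4.89 and 4.02 on day 4 (−1.78 ± 0.54 units, limma, unadjusted p = 0.00326). SRF, the serum response factor, had 9.12 and 8.37, then 5.98 and 6.53 (−1.38 ± 0.56, unadjusted p = 0.0218). Among shared regions YAP1 stood at percentiles 60.9 and 20.9 on day 2 and 3.06 and 1.32 on day 4, and SRF at 84.4 and 33.996, then 9.25 and 20.1. At both, D2 soft replicate 1 stood higher than replicate 2, whose percentile was nearer to day 4 than to its own replicate. SMAD3, a mediator of TGF-beta, had 5.37 and 5.60, then 5.03 and 2.91 (−1.53 ± 0.59), and MMP14, a membrane collagenase, had 6.76 and 6.98, then 4.87 and 4.99 (−1.30 ± 0.53), with limma unadjusted p of 0.0167 and 0.0233. When day 2 was D2 soft replicate 1 alone, YAP1, SRF and SMAD3 passed limma's adjusted threshold (adjusted p = 0.0111, 0.0247 and 0.0413). When it was replicate 2 alone they did not (adjusted p = 0.817, 0.99988 and 0.844), and the differences were −1.24, −0.63 and −1.19.

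By list, 5 of 10 tested promoters of TEAD, YAP and their targets had non-overlapping ranks that were lower on day 4 (AMOTL2, AXL, TEAD1, TEAD4 and YAP1) and 2 that were higher (AMOTL1 and LATS2), with a median difference of −0.52. For SRF and MRTF 3 of 5 were lower (ACTB, MRTFA and SRF) and 1 higher (VCL, vinculin, 3.90 and 9.07, then 10.1 and 8.89). For the contractile apparatus 3 of 7 were lower (MYH9, MYL9 and TAGLN) and 1 higher (TPM2). For collagens and matrix glycoproteins 3 of 7 were higher (FN1, SPARC and TNC) and 0 lower. For the TGF-beta pathway 3 of 9 were lower (SMAD3, SMAD6 and TGFB2) and 0 higher, for matrix turnover 2 of 10 lower (MMP14 and PLAT) and 0 higher, and for AP-1 factors 2 of 8 lower (ATF3 and FOSL1) and 1 higher (MAFF). Integrins and focal adhesion had 1 of 7 lower (ZYX), IGF and its binding proteins 1 of 3 lower (IGFBP6), and inflammatory cytokines and NF-kB 1 of 4 lower (IL11) and 1 higher (CXCL1). The adherens junction had 1 of 4 higher (CDH2), cell cycle 1 of 7 higher (CDKN2B) and PDGF its 1 tested promoter higher (PDGFRB). The CDH2 region counted is at an internal start. The shared region at its most upstream start had 5.67 and 3.88 on day 2 and 5.56 and 4.38 on day 4. Mesenchymal lineage factors had 0 of 8 in either direction, and the 1 tested promoter of quiescent HSC and retinoid genes overlapped. Over all promoter regions in the 4 lists 21.2% were lower and 13.7% higher. The promoter of GAPDH, a glycolytic enzyme that all cells use, had −0.49 units with overlapping days, and that of ACTB, a cytoskeletal actin counted above with SRF and MRTF, −0.85. ACTA2, the smooth muscle actin of activated HSCs, had 9.48 and 11.05 on day 2 and 13.2 and 9.35 on day 4, and COL1A1 had 6.62 and 8.34, then 8.06 and 8.56. The days overlapped in rank for both (−0.08 and −0.04 units).

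**Figure D5:**
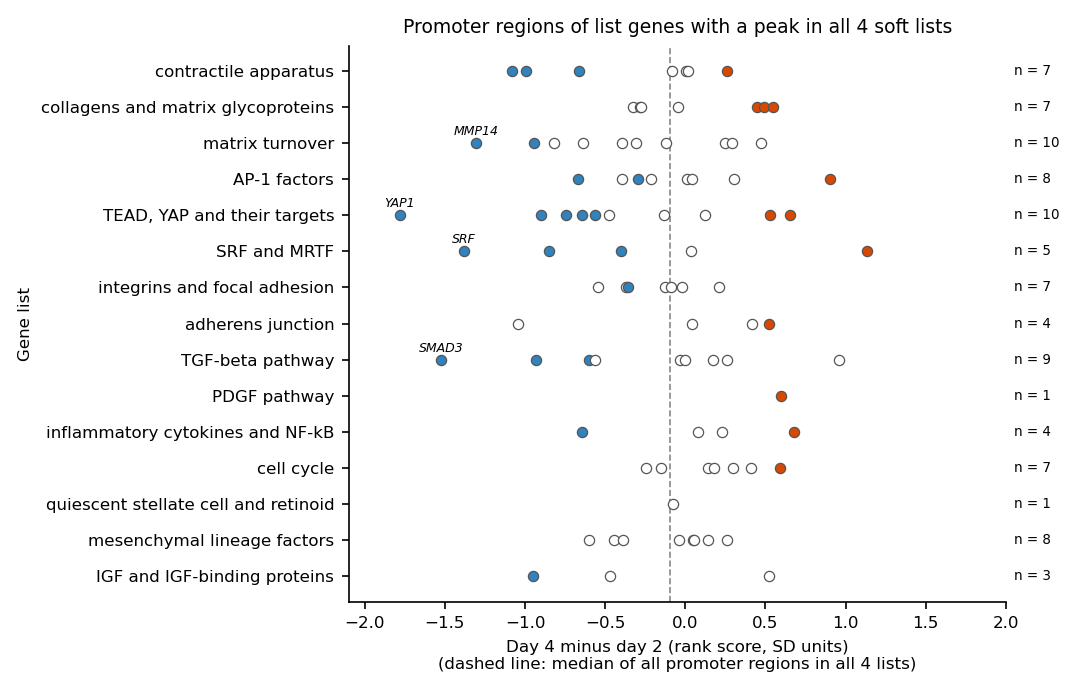
D4 minus D2 difference in rank score (horizontal axis, normal-score units) of promoter regions of the pathway genes found in all 4 soft lists, 1 region and point per gene, grouped by list. Filled points are regions whose days do not overlap in rank (orange higher and blue lower on day 4), the dashed line is the median of all promoter regions at −0.097, and YAP1 lies lowest at −1.78 and VCL, of the SRF and MRTF list, highest at 1.14.

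Marker promoters were checked against the label. Of 12 stellate and mesenchymal markers 8 had a promoter peak in all 4 soft lists, as had 45.9% of all protein-coding genes. Of the rest, COL1A2 had one in the D4 lists only, LRAT in D2 soft replicate 2 only and THY1 in D4 soft replicate 1 only. DES had none. Of 7 hepatocyte markers 0 did, and 6 had no peak in any, ALB and APOA1 among them. None of 5 cholangiocyte or 5 matched endothelial markers had one in all 4 lists, with KRT7, KRT19, VWF and STAB2 at no peak and EPCAM in the D4 lists only, and PECAM1 was not matched. The endothelial genes KDR and TIE1 and the cholangiocyte gene SOX9 had one in 3 of the 4 soft lists, all but D2 soft replicate 1, and in all 4 stiff lists. Among 6 macrophage and leukocyte markers 2 (CD68 and CD14) had a peak in all 4 lists. CSF1R had one in all but D2 soft replicate 1, and PTPRC, CD163 and SPI1 had none.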

How the data were processed

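ATAC-seq was done on 8 libraries of LX-2 cells, 2 in each of 4 groups. Reads were trimmed with Trim Galore, mapped to hg19 with Bowtie2 2.4.1 and, library by library, turned into peaks with MACS2 at a q-value up to 0.05. The submitters' processing notes also name Picard and bedtools 2.24.0. The MACS2 version and options are not given in the sources used here, and no reads were used.

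The fold enrichment in the deposited lists is a ratio, the summit pileup over the background of that library. Both −log10 values that the authors deposited (for p and q) were computed against it, and the score that the authors deposited is the −log10 q on a 10 times larger scale and was not used. The other deposited column gives the summit as an offset within the peak. All values hold within one list, so lists were compared by presence and by rank. Read totals are unknown. The pileup and background behind each peak were solved from the deposited fold enrichment and −log10 p under the standard MACS2 formula, and compare libraries only under that assumption.

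Soft-list peaks sharing 1 bp or more were merged over the 4 lists, and chromosomes 1 to 22, X and Y were used. No regions of repeated or poorly mapped sequence were filtered out here. The nearest gene was that of the nearest of 78716 protein-coding starts (19807 genes) in GENCODE release 44 on GRCh37. Sequence was read from GRCh37. Motifs were searched within 100 bp of the summit of the best-ranked peak.

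Ranks of fold enrichment at regions in all lists were turned into normal scores and fitted with limma 3.58.1 (lmFit and eBayes, R 4.3.3), with Benjamini-Hochberg adjustment over all regions fitted and a threshold of 0.05. Adjusted and unadjusted p-values of single regions come from this fit, with n = 2 libraries a day. Errors beside rank differences are standard errors. The script was tested on simulated data. Lists, lengths and stiff shares were compared by exact permutation tests. Python 3.11.15, pandas 2.3.3 and scipy 1.17.1 were used.

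Named regions were, in each class, the 10 with the best mean rank in the lists that hold them, the 5 best promoters, the 10 largest differences either way among shared regions whose days did not overlap, and the genes with most D4-only (10) and D2-only (5, with ties) regions. The regions, gene lists and tests were chosen with earlier results of these data known, and no set test was run. The replicate numbers were not taken to pair the libraries: the correlation of the deviations of same-numbered libraries from their group means was −0.0346, and peak names inside some lists carry another replicate number than the labels. The 1 best-ranked D4-only promoter region is not reported here.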

Additional observations from a re-analysis of the deposited data

Results flagged for a closer look

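The day difference of the region near TCF4 was unlike between the matrices. On the soft matrix it stood at percentiles 5.03 and 24.3 among regions in all 8 lists on day 2 and 83.2 and 89.9 on day 4. On the stiff matrix it stood at 72.1 and 83.4 on day 2 and 71.7 and 69.4 on day 4. The difference of the day effects, soft minus stiff, was 2.53 ± 0.69 rank-score units (SE, limma interaction term, unadjusted p = 0.00104, adjusted p = 0.804). The region was among the 10 chosen for a large soft day difference, and the adjusted p over the 24246 regions fitted did not pass the threshold.

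The promoter of MAFF, a small MAF partner of AP-1 proteins, differed between days in opposite directions. It stood at percentiles 1.99 and 3.08 on day 2 and 19.8 and 10.8 on day 4 on the soft matrix, and at 27.0 and 29.3 and then 1.41 and 15.4 on the stiff matrix. The difference of the day effects was 1.95 ± 0.70 units (SE, limma interaction term, unadjusted p = 0.00964, adjusted p = 0.920).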

How the results depend on the processing

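Counts by presence changed under several of these choices. The D4-only count of 4444 became 1228 in lists of equal length, 22557 when 1 list of a day sufficed and 73 for regions deep enough for both lists of the other day, a choice made after seeing the data. The D2-only count of 306 became 1037, 7760 and 73. Leaving out 1 library, which by construction needs fewer lists to match, gave 5228 to 19460 and 737 to 6595. The rank fit gave 0 to 676 calls, with 5 without D2 soft replicate 1 and 676 without D2 soft replicate 2. Promoter shares of D4-only, D2-only and shared regions were 11.2%, 24.8% and 35.3% in lists of equal length, 16.2%, 14.7% and 40.1% with the starts of all annotated transcripts and 13.4%, 12.7% and 35.9% within 3 kb. Without 1 library they ranged over 7.64% to 16.7%, 6.502% to 10.4% and 27.2% to 31.7%. AP-1 shares were 29.1%, 21.6% and 23.1% within 50 bp of the summit, and ranged over 33.0% to 43.0%, 23.1% to 38.2% and 36.0% to 38.2% without 1 library. In lists of equal length the D4-only AP-1 share, promoters included, was 54.3%, with no value of the other classes beside it. Merging at 50% overlap gave 4274 and 299 regions and a q up to 0.01 gave 4321 and 254. No single difference changed sign, but D2-only regions outnumbered D4-only regions without D2 soft replicate 1. Ranks of −log10 p (650 higher and 681 lower at an unadjusted p under 0.05), all 8 libraries in one fit, quantile-normalised values, lists of equal length and regions with 1 peak per list also called 0 regions by limma.

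With the replicate number as a block the rank fit called 0 regions (798 higher and 493 lower at an unadjusted p under 0.05, lowest adjusted p 0.0950) and the interaction 0. The correlation over the 1 pair of numbers was −0.0346, and peak names inside some lists carry another replicate number than the labels, so which libraries the block pairs is uncertain.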
